A study of Mus musculus with 14 samples.

Results

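Nuclear receptors are transcription factors that bind DNA directly, and most of them are switched by a lipid-soluble ligand such as a steroid, thyroid hormone, retinoic acid, a fatty acid or an oxysterol. The 39 mouse genes described here were taken by name as the nuclear receptors outside the NR4A subfamily that were listed for this purpose, out of 49 nuclear receptors and 21668 protein-coding genes in the GRCm38 annotation. For each gene, the peaks of 12 deposited lists were counted at the promoter, taken as the 1000 bp before and the first 100 bp of a coding transcript, and elsewhere within 50 kb of the gene.

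Chromatin immunoprecipitation with sequencing was carried out on 3T3-L1, a preadipocyte line of the mouse whose cells become fat-like in culture, after 4 days of differentiation. The cells were left untreated (control) or treated for 1 h with 10 µM forskolin (FSK), which activates adenylyl cyclase and raises cAMP, with the cytokine TNFα, or with both. Antibodies were directed at CRTC2, a coactivator that cAMP signalling releases into the nucleus to bind CREB, at p65, a DNA-binding subunit of NF-κB, and at acetylated lysine 27 of histone H3 (H3AcK27), a mark of active promoters and enhancers. All 4 groups had been differentiated in a medium with dexamethasone, rosiglitazone, IBMX, insulin and thyroid hormone T3, followed by insulin and T3, so ligands of the glucocorticoid receptor, of PPARγ and of the thyroid hormone receptors, and an agent that raises cAMP, were part of the history of the control cells too. There was 1 library for each combination of target and treatment, so the differences between treatments lack a replicate check and no test was run. Fewer cells of a kind and less signal per cell cannot be told apart in such libraries.

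The libraries held between 9832884 and 31807394 tags, and the FSK library of H3AcK27 was the shallowest. In the order control, FSK, TNFα and both, the lists held 5188, 11749, 19527 and 14171 CRTC2 peaks, 214, 2969, 2404 and 4221 p65 peaks, and 52321, 38684, 49754 and 42227 H3AcK27 regions. A place absent from a list did not pass the peak caller in that library, which does not show that nothing was bound there. Control and TNFα libraries were called against the input of untreated cells, and FSK and FSK+TNFα libraries against the input of FSK-treated cells, so the input changes together with FSK. Of 8 adipocyte marker genes, 3 (Fabp4, Lpl and Pparg) had an H3AcK27 region at the promoter in every list, and Adipoq, Plin1, Cidec, Cd36 and Cebpa had none in any list. Of 4 preadipocyte and fibroblast markers 3 to 4 had one, of 4 macrophage markers 0 to 1 (Cd68), of 3 endothelial markers 0 to 1, and of 3 hepatocyte markers 0. The label of adipocytes is therefore met by only part of its markers at this stage.

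Many receptors of the NR1 subfamily, such as the retinoic acid, vitamin D, thyroid hormone and liver X receptors and the PPARs, bind DNA as heterodimers with a retinoid X receptor, whereas steroid receptors such as the glucocorticoid and mineralocorticoid receptors bind as homodimers. In fat cells the glucocorticoid receptor and PPARγ act during differentiation, COUP-TFII (Nr2f2) and the vitamin D receptor are known to restrain it, and liver X receptors and PPARδ control lipid genes. The glucocorticoid receptor, the liver X receptors and the PPARs also hold back NF-κB target genes in many cells. CREB and its coactivators act through the cAMP response element (CRE), TGACGTCA, or its shorter form TGACG.

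At promoters, CRTC2 was found at 5 of the 39 members (12.8%) in the control list, 10 (25.6%) after FSK, 13 (33.3%) after TNFα and 9 (23.1%) after both, beside 11.5%, 27%, 39.5% and 28.5% of all protein-coding genes. The members' shares therefore lay near the background in each list. H3AcK27 covered the promoter of 19 members (48.7%) in control cells, 17 (43.6%) after FSK, 19 (48.7%) after TNFα and 17 (43.6%) after both, against 51.5%, 46.7%, 51.2% and 49.0% of all genes. p65 was listed at the promoter of 1 member, Nr2f2 after TNFα (2.56%), and of none in the other lists, where 0.0877% (control), 0.508% (FSK), 0.563% (TNFα) and 0.960% (both) of all genes had such a peak. With backgrounds this low, a count of 0 or 1 among 39 members says little about the receptors.

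**Figure D1:**
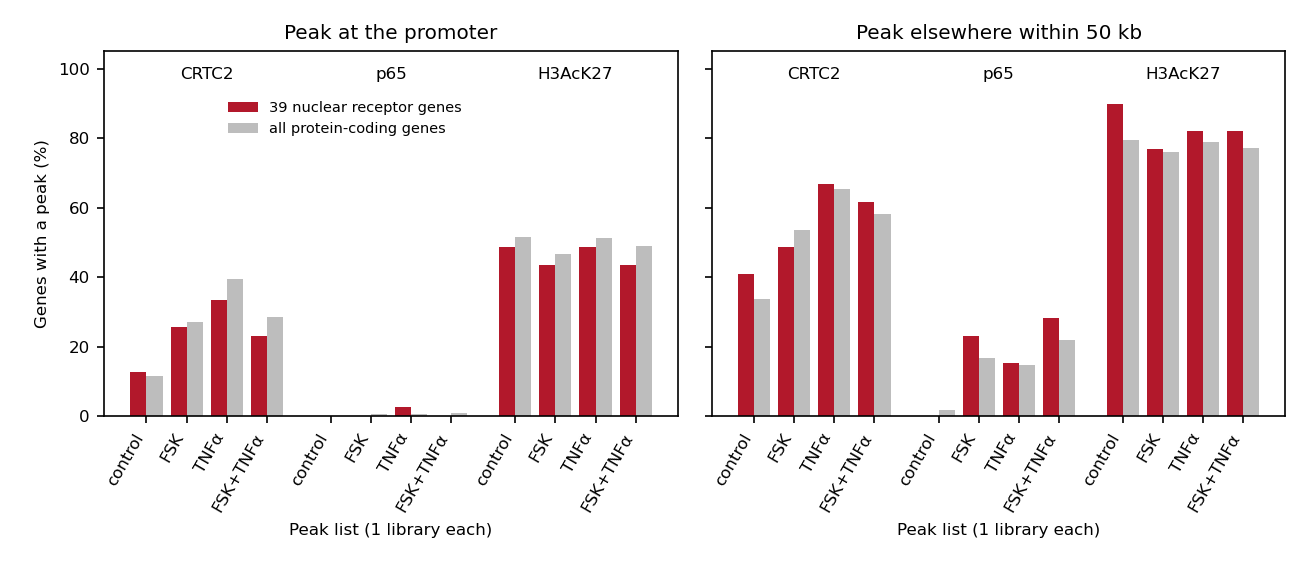
Share of genes with a peak (percent, vertical axis) at the promoter and elsewhere within 50 kb, for each target and treatment, in the 39 nuclear receptors and in all 21668 protein-coding genes. For CRTC2 at the promoter the receptors stand at 12.8, 25.6, 33.3 and 23.1% beside 11.5, 27, 39.5 and 28.5% of all genes, and each share comes from 1 library.

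Elsewhere within 50 kb, CRTC2 peaks lay near 16 members (41.0%) in control cells, 19 (48.7%) after FSK, 26 (66.7%) after TNFα and 24 (61.5%) after both, and 33.8%, 53.7%, 65.3% and 58.3% of all genes had one. p65 peaks lay near 0 members in control cells, 9 (23.1%) after FSK, 6 (15.4%) after TNFα and 11 (28.2%) after both, against 1.84%, 16.7%, 14.6% and 21.9% of all genes. H3AcK27 regions lay near 35 (89.7%), 30 (76.9%), 32 (82.1%) and 32 (82.1%) members, against 79.4%, 76.1%, 79.0% and 77.3%. The members are long genes, with a median length of 56.2 kb against 17.4 kb, and so have wider windows. Per megabase of window, CRTC2 peaks were 2.67, 6.40, 10.8 and 8.49 at the members and 3.56, 8.76, 14.6 and 9.93 at all genes, so the density of CRTC2 peaks was lower around the receptors in every list, whereas the share of genes was lower after FSK only. For p65 the densities were 0, 1.40, 0.814 and 2.33 peaks per Mb at the members and 0.128, 1.41, 1.22 and 2.04 at all genes, and for H3AcK27 they were 29.2, 20.7, 27.1 and 25.5 beside 30.5, 23.3, 28.9 and 25.7. Among the 31 members and 15725 genes whose windows measured 107 to 480 kb, CRTC2 elsewhere was at 41.9%, 48.4%, 67.7% and 61.3% of members beside 35.4%, 57.2%, 69.6% and 62.2%, and p65 at 0, 22.6%, 19.4% and 32.3% beside 1.84%, 18.2%, 15.6% and 23.5%. By share the receptors stayed near the background within this range of lengths. The lower CRTC2 density was computed over all members and all genes and was not recomputed within this range.

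An H3AcK27 region lay at the promoter in all 4 lists for 17 receptors (43.6%, beside 45.2% of all genes), in only some lists for Rora, Thrb and Nr1h4 (7.69%, beside 7.93%), and in no list for 19 (48.7%, beside 46.9%). The split was thus near that of all genes. The 19 without one were the adrenal and gonadal Nr0b1 and Nr5a1, the liver and gut receptors Nr0b2, Nr1i2, Nr1i3, Nr5a2, Hnf4a and Hnf4g, the neural and retinal Nr2e1, Nr2e3 and Rorb, the sex steroid receptors Esr1, Esr2 and Pgr, and Ppara, Rarb, Rxrg, Esrrb and Esrrg. All 13 members with a CRTC2 promoter peak in any list belonged to the 17, and none of the 20 members without acetylation in control cells had a CRTC2 promoter peak in any list. Among all genes without acetylation in control cells that share was also small, at 0.162%, 0.428%, 1.02% and 0.685%. Among the 19 members acetylated in control cells, 26.3%, 52.6%, 68.4% and 47.4% had a CRTC2 promoter peak, beside 22.3%, 52.1%, 75.6% and 54.8% of the 11161 acetylated genes. Nr0b1, Esrrb, Pgr and Hnf4g had no peak of any target in the window.

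**Figure D2:**
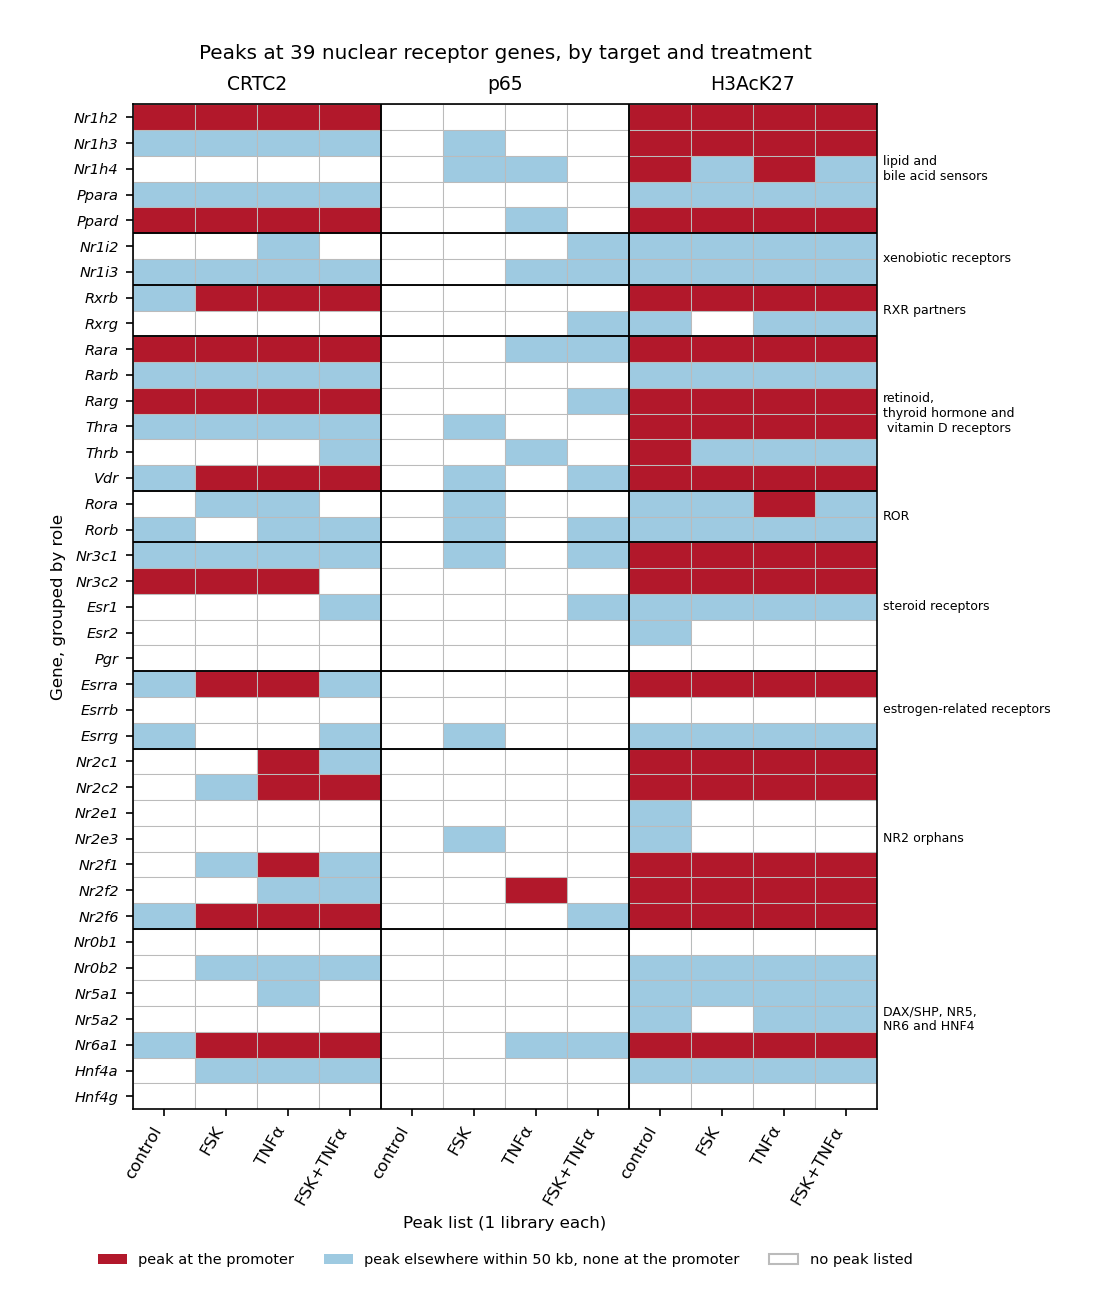
Each of the 39 receptors (rows) in each of the 12 lists (columns), with the place of its peaks, at the promoter, elsewhere within 50 kb or none, shown by colour. H3AcK27 lies at the promoter of 17 receptors in all 4 lists, the 13 receptors with CRTC2 at the promoter are among them, and p65 reaches a promoter once, at Nr2f2 after TNFα.

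CRTC2 was listed at the promoter in all 4 libraries for 4 receptors: Nr1h2, which encodes the oxysterol receptor LXRβ, Ppard, which encodes the fatty acid receptor PPARδ, and the retinoic acid receptor genes Rara and Rarg. Heights are tags in the peak per 10000000 tags of the library, as deposited, and a height over 2 libraries of different efficiency is not an amount of bound protein. At Ppard the peaks of the 4 lists overlapped and held 11.1 normalised tags in control cells, 23.7 after FSK, 27.6 after TNFα and 16.7 after both. At Nr1h2 they held 12.7, 20.7, 23.4 and 13.5, but the control peak overlapped the TNFα peak only. At Rara, upstream of an internal start site, they held 11.6, 15.8, 24.2 and 26.1, and the control peak overlapped the FSK peak only. The heights at Nr1h2 and Rara thus come from neighbouring, not identical, places. At these 3 promoters the control height was the lowest of the 4. The share of all genes for which this holds was not computed. The median CRTC2 peak height was also lowest in the control list, at 10.6 beside 13.4, 11.3 and 11.3. Rara also had a separate promoter peak of 15.2 after FSK only.

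Rarg carried CRTC2 at separate places. At an internal start site the peak held 10.6 normalised tags in control cells, 16.4 after FSK and 16.6 after TNFα and was not listed after both, and near the outer start site it was not listed in control cells and held 19.5 after FSK, 21.2 after TNFα and 11.9 after both. A further peak near the outer start held 14.0 after TNFα only. Counting any place, Rarg was in all 4 lists, but no single place was.

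A further 7 receptors had the promoter peak in 2 or 3 lists. Vdr, the vitamin D receptor gene, was not listed in control cells and held 32.2 normalised tags after FSK, 19.3 after TNFα and 29.6 after both. By peak score it ranked 434 of 11749 after FSK, 3553 of 19527 after TNFα and 463 of 14171 after both, in lists whose length and library efficiency differ. The Vdr start site used, that of its coding transcripts, is internal. The gene record, on the minus strand, extends upstream of this start site to chr15:97910630. The FSK and FSK+TNFα peaks are centred 119 and 102 bp past this start site, just beyond the promoter as defined. Vdr left those 2 lists when the midpoint had to lie within that promoter. Nr6a1, which encodes the germ cell nuclear factor GCNF, was also not listed in control cells, with 19.5 after FSK, 8.31 after TNFα and 20.4 after both at one place, and 13.4 after FSK and 11.0 after TNFα at a neighbouring place. Rxrb, which encodes the heterodimer partner RXRβ, held 20.7 after FSK and 24.2 after TNFα at its start, and 27.2 after TNFα and 11.3 after both farther upstream, where its promoter is shared with the promoter of the divergent gene Slc39a7.

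Esrra, which encodes the oestrogen-related receptor α of oxidative metabolism, held 13.4 normalised tags after FSK and 16.2 after TNFα and was not listed in control cells or after both. Nr2c2, which encodes the orphan receptor TR4, held 11.7 and 21.2 at separate places after TNFα and 8.17 after both. Nr2f6, which encodes the COUP-TF relative EAR2, held 8.52 after FSK at one place, 10.2 after TNFα and 9.75 after both at another, and 7.56 after TNFα at yet another. Nr3c2, the mineralocorticoid receptor gene, ran the other way: it held 14.3 in control cells and 7.93 after TNFα at one place, 6.08 after FSK at another, and was not listed after both. Nr2c1 (9.07) and Nr2f1 (14.7), which encode TR2 and COUP-TFI, were listed after TNFα only.

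**Figure D3:**
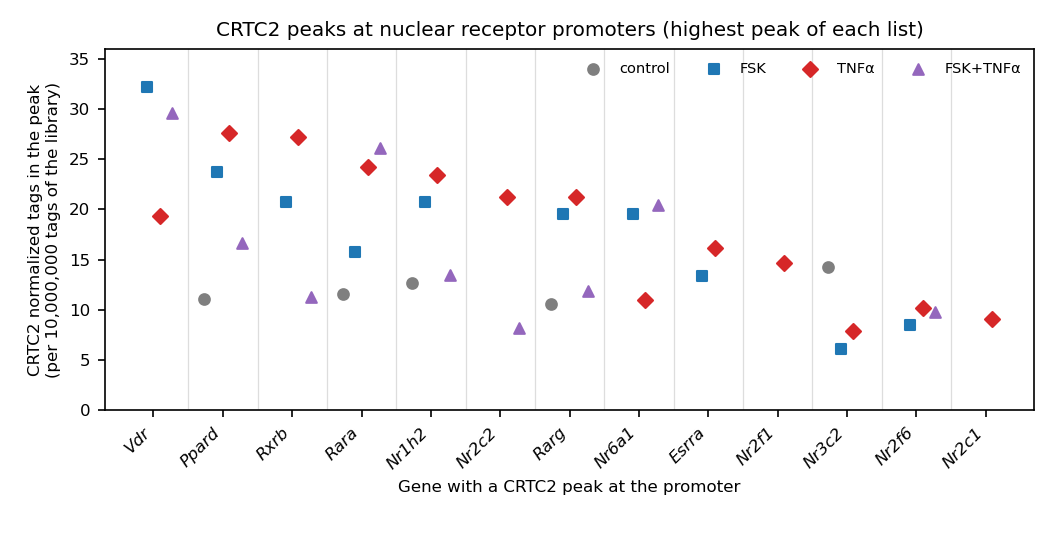
Normalised CRTC2 tags per 10000000 tags (vertical axis) in the tallest promoter peak of each list at the 13 receptors that have one, by treatment, with 1 library per point and no point where no peak was listed. Nr1h2, Ppard and Rara have their lowest height in control cells, Vdr stands at 32.2 after FSK and 29.6 after both, and Nr3c2 has its largest height, 14.3, in control cells.

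Against the control list, which all 3 contrasts share, a CRTC2 promoter peak was gained by 5 members after FSK (12.8%, beside 17.6% of all genes), 8 after TNFα (20.5%, beside 28.3%) and 5 after both (12.8%, beside 19.3%). Nr2f6, Nr6a1, Rxrb and Vdr gained one in all 3 contrasts, Esrra after FSK and after TNFα, Nr2c2 after TNFα and after both, and Nr2c1 and Nr2f1 after TNFα. The only loss was Nr3c2 after both, where 2.33% of all genes lost one. When lists were compared at the size of the smallest, the gains were 3, 3 and 3, so part of each count goes with the length of the list.

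The motif TGACG was searched on both strands in 200 bp windows centred on the peaks, and a match is a description, not a site that was shown to be used. At promoter peaks of members it was present in 1 of 5 peaks in control cells (20%), 4 of 13 after FSK (30.8%), 4 of 19 after TNFα (21.1%) and 2 of 9 after both, beside 24.9%, 29.4%, 24.2% and 30.1% of the promoter peaks of all genes. In the RefSeq promoters of the GRCm38 build, 12 of 35 matched members (34.3%) held TGACG, beside 23.0% of 27025 genes. The full CRE was held by 2 of the 35, Nr2e1 and Nr6a1 (5.71%, beside 2.03%), and Nr2e1 had no CRTC2 promoter peak in any list. A gene counted when any of its RefSeq promoters matched. These 27025 genes are a larger set than the 21668 protein-coding genes used elsewhere, so this background is not the same. The matches under CRTC2 promoter peaks of members are shown with their surroundings because they are the letters through which CREB is known to recruit CRTC2. They are given 5′ to 3′ in the direction of the gene, in mm10 coordinates, with the short CRE form or its reverse complement CGTCA in capitals.
Nr1h2, chr7:44553936-44553964, minus strand, peak windows of FSK, TNFα and both: tacttccggaagTGACGcgcagcggggtt
Ppard, chr17:28232738-28232766, plus strand: gctgggagcgtgTGACGccgcaggccgcg
Nr6a1, chr2:38926410-38926438, minus strand, within the full CRE: ggcagcggcgcgTGACGtcagaggaggga
Nr2f6, chr8:71382421-71382449, minus strand: cggagaggcgacTGACGcccagcctctcc
Nr2c2, chr6:92092250-92092278, plus strand: cgacctcctgagTGACGgccgggctggcc
Nr2c1, chr10:94147894-94147922, plus strand: tcgcccagggaaCGTCAccaccgccggcc
Of these 6, the Nr6a1 site alone continues to the full palindrome. The Ppard match lay in the peak windows of control, FSK and TNFα, and the Nr6a1 match in those of FSK and TNFα. The tallest Nr6a1 promoter peak, 20.4 after both, held no match in its window. The matches at Nr2f6 (FSK), Nr2c2 (both) and Nr2c1 (TNFα) lay in the window of 1 list each. The promoter peak of Vdr held no match in its window.

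Away from promoters, a CRTC2 peak often lay closer to the start site of another gene: of the peaks counted elsewhere near members, 7 of 23 in control cells, 14 of 55 after FSK, 21 of 93 after TNFα and 23 of 73 after both had a member as the gene with the nearest start site. Overlapping peaks of this kind formed 48 places at 18 members, of which 12 places at 8 members were in 2 or more lists. Of these 12, 4 were listed after FSK and after both only, 3 after TNFα and after both only, and 0 with control and TNFα only. Such places were formed for the members only. Their counts therefore have no share over all genes beside them and are not read as a result about the receptors. The places named next were chosen after their values were seen.

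The tallest of them lay 6.20 kb upstream of the internal Vdr start site, so nearer than that to the outer end of the gene record, and between genes. CRTC2 was not listed there in control cells or after TNFα, and held 114 normalised tags after FSK and 101 after both. It ranked 23 of 11749 peaks after FSK (the top 0.196%) and 21 of 14171 after both (0.148%), at 78.99-fold and 46.02-fold over input. The place lay in an H3AcK27 region whose density was 80.4 tags per kb in control cells, 150 after FSK, 79.5 after TNFα and 124 after both, and whose width was 1.90, 3.33, 2.30 and 3.21 kb. The density ratio to control was 1.87 after FSK, where 95.0% of 30529 control regions with a counterpart were at or below that ratio (median 1.07), 0.989 after TNFα, and 1.54 after both, where 92.1% were at or below it (median 0.967). Acetylation was thus higher in the same libraries in which CRTC2 was listed. The place held the tallest CRTC2 peak found near any member, and its window held TGACG, without the full CRE, after FSK and after both.

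Vdr had further CRTC2 places. An intronic peak 0.800 kb past the internal start site was in all 4 lists, which held for no other of the 48 places. It held 17.5 normalised tags in control cells, 26.8 after FSK, 14.4 after TNFα and 21.7 after both. An AP1 motif (TGACTCA or TGAGTCA) lay in its window in control cells and after both only, and TGACG lay in none of its windows. The promoter peak and this intronic peak lay in an H3AcK27 region of 91.8 tags per kb in control cells, 154 after FSK, 91.6 after TNFα and 147 after both, that is 1.68, 0.998 and 1.61 of control. Of the 3 places, control cells had only the intronic one listed, TNFα had the promoter and the intronic one, and both treatments with FSK had all 3. The part of the promoter peak outside exons, with no capitals because no motif matched, reads as follows on the minus strand.
Vdr promoter peak, chr15:97908111-97908234: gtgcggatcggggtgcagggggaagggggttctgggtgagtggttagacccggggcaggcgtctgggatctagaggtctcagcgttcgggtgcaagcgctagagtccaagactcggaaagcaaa

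**Figure D4:**
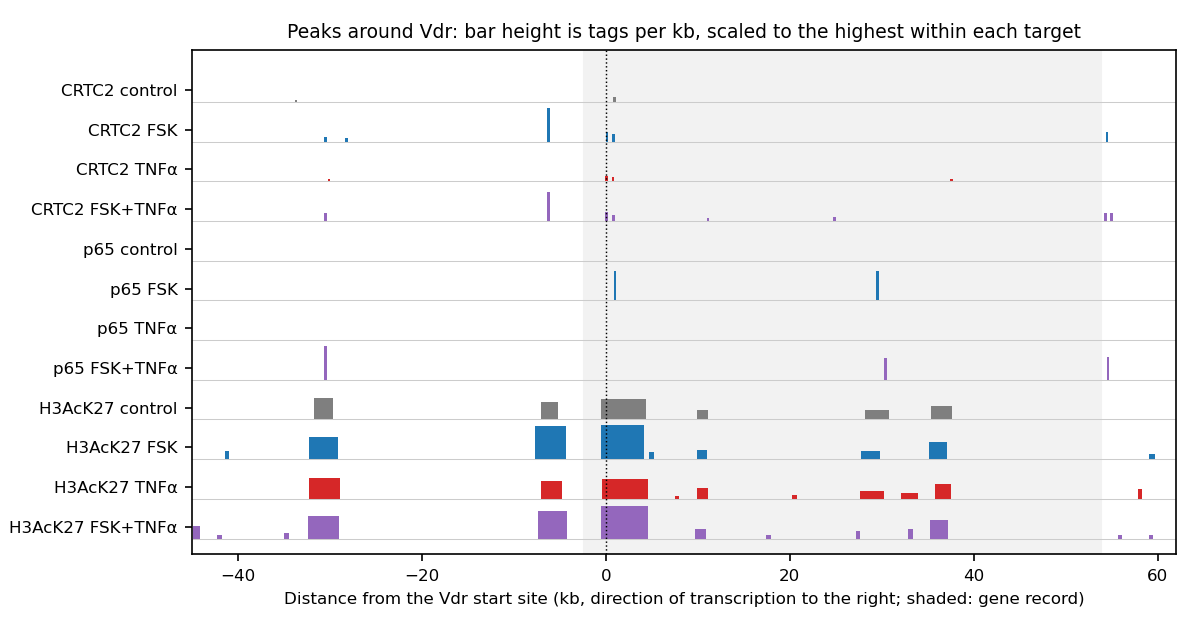
Peaks of each list around Vdr by distance from its start site in kb (horizontal axis), with the gene record shaded, narrow peaks drawn wider than to scale so that they can be seen, and bar height showing tags per kb scaled to the highest bar of each target. The tallest CRTC2 bars, 6.20 kb upstream, are present after FSK (114 normalised tags) and after both (101) and absent in control cells and after TNFα.

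The retinoic acid receptor genes and Ppard also held CRTC2 places away from the promoter. At Rara, in an intron 1.27 kb before the nearest start site, CRTC2 held 31.6 normalised tags after FSK, 53.3 after TNFα and 14.1 after both, and was not listed in control cells. At Rarg, in an intron at 2.88 kb, it held 27.4, 21.2 and 16.3. The H3AcK27 region around the Rara place had 130, 123, 134 and 133 tags per kb but measured 40.3, 17.8, 39.5 and 18.2 kb. Its summed tags were 0.418 of control after FSK and 0.460 after both. Separate regions overlapped the same control region, of 9.47 kb (640 tags) and 6.45 kb (450) after FSK. After both they measured 10.6 kb (640 tags) and 7.29 kb (494). These tag ratios therefore set a part against the whole control region. At Rarg the region had 198, 182, 198 and 181 tags per kb over 8.50, 9.59, 9.89 and 9.45 kb. At Ppard, an intronic place at 24.3 kb held 18.9 after FSK, 11.3 after TNFα and 10.1 after both, and another at 27.3 kb held 15.8 after FSK and 8.17 after both. The H3AcK27 region over both Ppard places had 71.1 tags per kb in control cells, 112 after FSK, 74.6 after TNFα and 147 after both, and at 2.06 of control after both, 97.8% of regions were at or below it. The window at 27.3 kb is shown because it holds 2 matches, in capitals, on the plus strand.
Ppard intronic window, chr17:28259967-28260166: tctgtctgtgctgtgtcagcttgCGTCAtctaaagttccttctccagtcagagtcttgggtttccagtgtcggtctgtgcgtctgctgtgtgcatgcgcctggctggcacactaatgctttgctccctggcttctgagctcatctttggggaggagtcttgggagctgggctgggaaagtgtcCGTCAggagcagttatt

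At Nr2f1 a place at 32.5 kb held 12.8 normalised tags after FSK and 20 after TNFα. At Nr2f2 a place in an intron, 1.12 kb before an internal start site, held 11.3 after TNFα and 8.80 after both. At Rarb a place 156 kb from the start held 7.91 after FSK and 5.03 after both. At Nr6a1 a place at -38.7 kb from its nearest start site held 7.30 after FSK and 5.34 after both. These heights are low beside those at Vdr. TGACG was in 5 of the 12 places found in 2 or more lists, where a place counts if any of its windows matched. That share was not computed for places of all genes, so it has no background. Over single CRTC2 peaks elsewhere near members, TGACG was in 4 of 23 in control cells (17.4%, beside 14.7% of all peaks) and 15 of 55 after FSK (27.3%, beside 26.3%). It was in 10 of 93 after TNFα (10.8%, beside 15.7%) and 20 of 73 after both (27.4%, beside 25.2%). Of these peaks, 14 of 23 in control cells (60.9%), 41 of 55 after FSK (74.5%), 82 of 93 after TNFα (88.2%) and 61 of 73 after both (83.6%) lay in an H3AcK27 region of the same treatment, beside 65%, 84.3%, 75.3% and 82.9% of all such peaks.

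The single p65 promoter peak lay 15 bp upstream of a start site of Nr2f2, which encodes COUP-TFII, at chr7:70366669-70366831, after TNFα. It held 10.0 normalised tags at 8.60-fold over input and ranked 942 in its list (39.2%). Peaks of equal score share a rank, and the score of this peak was the lowest in that list. The peak was not listed in control cells, after FSK or after both.

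Away from promoters, p65 peaks near members numbered 12 after FSK, 7 after TNFα and 20 after both, and 19 members had one in any list. The share of all genes with one in any list was not computed, and the members have wider windows. List by list, 23.1%, 15.4% and 28.2% of members had one, beside 16.7%, 14.6% and 21.9% of all genes. The places hardly recurred: 0 of 12 FSK peaks overlapped a p65 peak of another treatment (beside 2.25% of the FSK p65 peaks counted elsewhere near any gene), 1 of 7 after TNFα (14.3%, beside 12.4%) and 1 of 20 after both (5%, beside 7.47%), and the recurring pair lay near Nr1i3, the xenobiotic receptor CAR. Of the p65 peaks, 3 of 12 after FSK (25.0%), 4 of 7 after TNFα (57.1%) and 8 of 20 after both (40.0%) lay in an H3AcK27 region of the same treatment, beside 18.3%, 43.3% and 35.5% of all. None of the members' p65 peaks held an NF-κB motif in its 200 bp window, and 0.269% to 2.20% of all p65 peaks did.

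With FSK the tallest p65 peaks lay near Nr1h3, the LXRα gene (22.5 normalised tags), Nr3c1, the glucocorticoid receptor gene (20.8), and Nr1h4, the gene of the bile acid receptor FXR (20), and Vdr held 2 within the gene (16.8 and 16.4). With TNFα the 7 peaks lay near Thrb, the thyroid hormone receptor β gene (15.6), Nr6a1 (14.5 and 11.9), Ppard (13.4), Nr1h4 (13.0), Nr1i3 (7.06) and Rara (5.58). With both the tallest lay near Vdr (19.0, 12.7 and 12.2), Nr6a1 (18.5, 14.2 and 13.2), Rorb (17.6, 16.6 and 6.83), Nr1i3 (15.6 and 12.7), Esr1 (15.1), Rxrg (14.6) and Nr2f6 (13.2), and lower ones lay near Rara (12.2 and 10.7), Rarg (11.7) and Nr3c1 (10.2), among others. Near Nr6a1, Nr1i3 and Rara p65 was thus listed in both lists with TNFα, and only at Nr1i3 at the same place. A member was the gene with the nearest start site for 8 of the 12 peaks after FSK, 4 of 7 after TNFα and 10 of 20 after both, and the peak near Nr1h3 was nearest to Madd.

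CRTC2 and p65 peaks of the same treatment overlapped near 2 members, both with FSK+TNFα, namely Vdr and Nr1i3. Among all genes, 0.0508% in control cells, 0.872% after FSK, 1.52% after TNFα and 3.92% after both had such an overlap. The overlap at Vdr lay 30.5 kb upstream, where CRTC2 held 26.4 normalised tags and p65 19.0, CRTC2 was also listed after FSK at 14.6, and the gene with the nearest start site was Tmem106c. The overlap at Nr1i3 lay 36.4 kb away, with 25.8 and 12.7, nearest to Adamts4, and CRTC2 was there in all 4 lists at 7.94, 17.0, 48.0 and 25.8. The sequence under the overlapping peaks at Vdr is shown because both factors were listed there with the combined treatment and p65 with no other. It is on the minus strand and has no capitals because no searched motif matched.
Vdr far upstream, chr15:97938685-97938866: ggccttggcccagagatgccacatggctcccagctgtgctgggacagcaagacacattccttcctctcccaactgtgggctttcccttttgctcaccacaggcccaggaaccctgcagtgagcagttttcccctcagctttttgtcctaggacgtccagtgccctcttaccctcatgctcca

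Acetylation at the promoter was given as tags per kb of the region over the start site. Rarg had the highest density of all members, with 198 tags per kb in control cells, 182 after FSK, 198 after TNFα and 181 after both, at percentiles 99.7, 99.2, 99.5 and 99.1 of all acetylated promoters. Rara had 130, 123, 134 and 133, and Nr1h2 had 112, 151, 128 and 158. Medians over the acetylated members were 75.6, 81.8, 74.6 and 74.1, beside 62.4, 69.2, 67.6 and 70.2 for all genes. Rara stood at percentiles 96.2, 93.1, 95.4 and 93.8. In the libraries with FSK, Nr1h2 (97.8 after FSK and 97.7 after both) and Vdr (98.0 and 96.6) stood higher than Rara. Rarb, the β gene, had no promoter region at all and yet had 65.2, 27.5, 51.6 and 32.7 kb of its body covered.

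The ratio of promoter density to control had a median of 0.964 over 17 members after FSK (range 0.857 to 1.68), beside 1.05 for all genes, 1.12 over 18 members after TNFα (0.712 to 3.92), beside 1.07, and 0.973 over 17 members after both (0.572 to 1.76), beside 1.08. A ratio of 2 or more was reached by 0 members after FSK (1.01% of all genes), 1 after TNFα (0.303%) and 0 after both (1.12%), and 0 members were lower than control by that factor after FSK (0.429%), TNFα (0.129%) or both (0.990%). The 1 member was Nr1h4, at 3.92. In TNFα-treated cells a region of 9989 bp with 580 tags reached its start site, whereas in control cells a region of 953 bp with 14.1 tags lay there beside a separate region of 8172 bp with 440 tags. The ratio at Nr1h4 therefore rests on where the caller ended a region. The lowest ratio after TNFα, 0.712 at Nr3c2, set regions at different start sites against each other.

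Within these limits, members lay on either side of control. Vdr stood at 1.68 of control after FSK and 1.61 after both, and Nr6a1 had 42.2, 69.1, 55.1 and 74.1 tags per kb, or 1.64, 1.31 and 1.76 of control. Ppard had 58.2, 78.3, 70.3 and 102, or 1.34, 1.21 and 1.75. Vdr, Nr6a1 and Ppard, with Nr1h2 and Rxrb, were the 5 of the 13 receptors with CRTC2 at the promoter (38.5%) whose control density lay below that of both libraries with FSK, beside 47.9% of the 8528 genes with CRTC2 at the promoter and a region in all 4 lists, so the pattern is not particular to them. In the other direction, Nr2f2 had 110, 94.5, 89.8 and 72.3 tags per kb, or 0.655 of control after both, and Thra, the thyroid hormone receptor α gene, had 75.6, 72.6, 74.6 and 43.3, with a region that measured 15.1, 1.16, 14.7 and 3.23 kb. Nr3c1 (82.8, 87.7, 98.0 and 79.0), Nr1h3 (31.0, 29.9, 34.0 and 25.7) and Esrra (46.5, 43.8, 55.2 and 37.0) stayed nearer to control. Rxrb had 94.5, 101, 112 and 132, highest after both, Nr2f6 had 75.3, 72.6, 102 and 73.3, highest after TNFα, and Nr2c2 had 59.8, 54.2, 70.0 and 59.3. Nr2c1 (91.9, 92.2, 80.6 and 79.4) and Nr2f1 (77.8, 81.8, 61.0 and 70.7) were lowest in a library that had TNFα. Nr3c2 had 20.8, 19.4, 14.8 and 24.0, the least of the receptors acetylated in all 4 lists. Thrb, at 30 in control cells only, and Rora, at 23.3 after TNFα only, also lay at the low end. At Nr3c2 the regions in control cells and after both overlapped, but those after FSK and after TNFα lay at another start site. The 4 values of Nr3c2 therefore do not follow a single place. Each of its 4 regions held at most 17.5 normalised tags, fewer than the median region of its list.

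**Figure D5:**
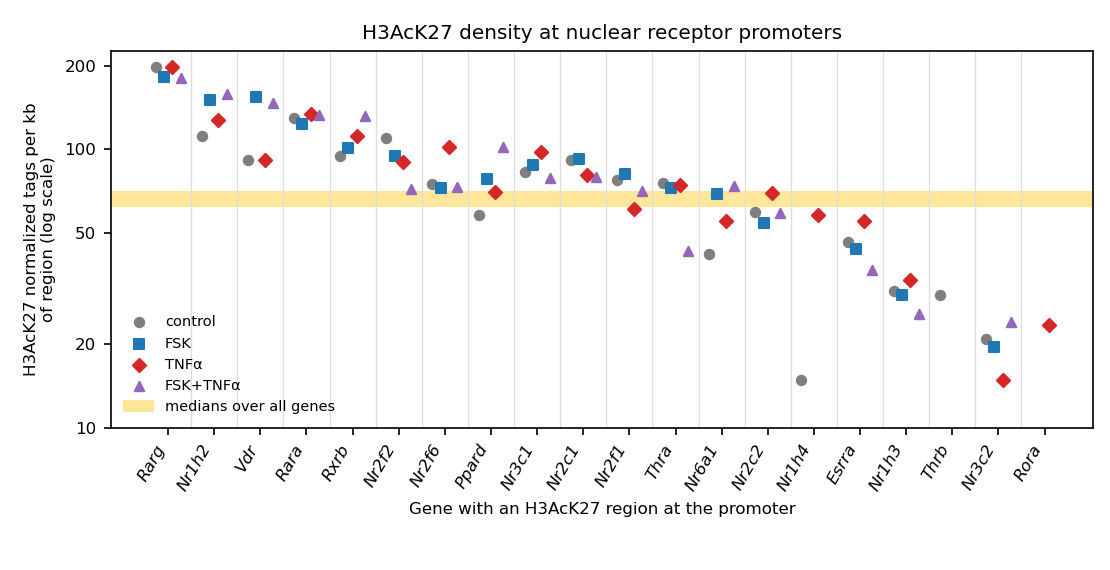
H3AcK27 density in tags per kb (vertical axis, log scale) of the region at the promoter, by treatment, for the receptors acetylated at the promoter, with 1 library per point and the medians over all genes as a band. Rarg is highest at 198, 182, 198 and 181, Vdr, Nr6a1 and Ppard are higher in both libraries with FSK than in control, and Nr2f2 and Thra each have their lowest value after both, at 72.3 and 43.3.

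H3AcK27 regions covered less in both libraries with FSK, for members and for all genes alike. They covered 324, 204, 311 and 223 kb of the members' gene bodies, or 6.90%, 4.35%, 6.62% and 4.74%, beside 6.89%, 4.42%, 6.70% and 5.14% of all genes. Relative to control this was 0.631 after FSK, 0.960 after TNFα and 0.687 after both for the members, and 0.641, 0.972 and 0.746 for all genes. The share of all H3AcK27 tags that fell in regions was 64.9%, 48.6%, 66.7% and 50.9%, and the median region measured 1.47, 1.32, 1.50 and 1.25 kb, so the libraries with FSK differ as a whole from the other two, and the part of this in the coverage was not tested. Among members, Rara was covered over 41.9, 33.7, 41.1 and 36.6 kb, Thrb over 21.5, 7.48, 13.3 and 3.29 kb, and Thra over 19.2, 7.54, 18.5 and 9.81 kb. Ppard was covered more after both than in control cells, with 15.5, 13.5, 21.4 and 18.3 kb.

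For comparison, of the 10 other nuclear receptors, the NR4A genes among them, 0, 5, 4 and 5 had CRTC2 at the promoter and 9, 9, 8 and 8 had H3AcK27 there. Nr4a1, a classical CREB target, was not listed for CRTC2 at the promoter in control cells and held 104 normalised tags after FSK, 8.31 after TNFα and 62.9 after both. The upstream place at Vdr, at 114 and 101, was the only CRTC2 peak near a member of such height. Of 15 nuclear receptor coregulator genes, which were acetylated at 14 to 15 promoters, 7, 7, 10 and 6 had CRTC2 at the promoter.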

How the data were processed

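Per the labels and the methods of the study, 1 chromatin immunoprecipitation library per target and treatment was sequenced, reads were aligned with STAR and peaks were called with HOMER on the mm10 build, as named in the submitters' processing notes. Versions are not given in the sources used here. Each deposited list gives per peak a signal (the tag count in the peak, which the authors scaled to 10000000 tags per library), a score from the peak caller, the fold ratio over input tags, and, for H3AcK27, the width of the stitched region. No count of reads per gene was used. The authors' lowest fold ratio over input in any list was 4.00. Input libraries (2) were not analysed here on their own.

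Start sites, gene extents and exons came from the basic GENCODE set on GRCm38, and promoter sequences from RefSeq. Each peak was credited to a gene's promoter when it overlapped the 1000 bp before or the first 100 bp of a coding transcript, and otherwise to the 50 kb window. A peak can thus count for several genes. H3AcK27 density is normalised tags per kb of the region over the start site, and a difference of at least 2-fold was counted. With 1 library per target and treatment there were no replicates, so no p-values were computed. Tag intervals were not given because repeated tags are not independent molecules. The overlap counting was tested on simulated peaks. Motifs were searched in 200 bp windows. Full values are given for members with CRTC2 at the promoter in 2 or more lists, members with a p65 promoter peak and members where CRTC2 and p65 overlapped, and other genes are named for contrast. The members and comparison lists were chosen with earlier results of these data known. Python 3.11.15, numpy 2.4.6, pysam 0.24.0, matplotlib 3.10.9 and samtools 1.23.1 were used. Some items are not reported here.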

Additional observations from a re-analysis of the deposited data

How the results depend on the processing

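Of 231 recomputed values, 188 stayed close to the reported one (a count within 1.5 times, a ratio of shares within the binomial interval of the members' share), and the other 43 follow in the order control, FSK, TNFα and both where not named. With the outermost start site of each gene only, CRTC2 promoters numbered 2 in control cells, 5 after FSK and 5 after both, gains were 3 after FSK and 3 after both, losses after both were 0, and p65 after both was at 1 promoter. Rara, and Vdr in all 3 lists that held it, were among those left out. Requiring 8-fold over input left 2 CRTC2 promoters in control cells and 5 members with p65 elsewhere after FSK. With lists cut to the size of the smallest, CRTC2 promoters were 6 after TNFα and 5 after both, gains were 3, 3 and 3, losses were 1, 2 and 3 after FSK, TNFα and both, members with CRTC2 elsewhere were 12, 17 and 13, and p65 was at 0 promoters after TNFα and near 0 members in each of the 3 treated lists. With the promoter set to 2500 bp upstream and 500 bp downstream, p65 after both was at 2 promoters (Nr6a1 and Rorb), and 1 member had a 2-fold lower H3AcK27 density after both. With the comprehensive GENCODE start sites, an alternative chosen after seeing the data, p65 after both was at 1 promoter. Requiring the peak's midpoint inside the promoter left H3AcK27 at 8, 11, 8 and 9 members, and 0 members with a 2-fold higher density after TNFα. A 20 kb window left CRTC2 elsewhere near 8 members in control cells, and a 100 kb window put p65 near 2 in control cells. Crediting peaks to the gene with the nearest start site left CRTC2 elsewhere at 6, 9, 13 and 12 members and p65 at 3 after TNFα and 7 after both. Per megabase of window, the ratio of members to all genes fell to 0.750 (CRTC2, control), 0.740 (CRTC2, TNFα) and 0.957 (H3AcK27, control). Beyond what each setting does by construction, the cause was not tested.

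No paired analysis was possible because each target and treatment had 1 library, which leaves nothing to leave out in turn. The p65 lists, the shortest, limit what can be said of p65, and the FSK library of H3AcK27, the shallowest, limits how far its narrower regions can be read. A height near the listing threshold cannot be told from absence in another list.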
